A study of Mus musculus with 6 samples.

Results

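The tetraspanins form a family of membrane proteins that cross the membrane as a bundle of helices, with a small and a large extracellular loop. They carry few signals of their own and organise other proteins, such as integrins, immunoglobulin superfamily receptors and the sheddase ADAM10, into patches of membrane and into exosomes. Some are restricted to leukocytes, some to single tissues, and Tspan33 is known from erythroid progenitors. The members described here were the rows of the count table named Tspan followed by a number, and Cd9, Cd37, Cd53, Cd63, Cd81, Cd82, Cd151 and Upk1b. Of 25628 gene symbols 24 fitted this rule, and no row was named Upk1b. A member was judged only with a mean of at least 0.5 CPM, which are reads scaled to a common library total, over the 6 libraries, which left 16. The lowest judged member was Tspan18 with a mean of 0.585 CPM, and the highest not judged was Cd53 with 0.368 CPM.

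The libraries were poly(A) RNA-seq of TgSpi1 mouse erythroleukaemic cells, which are leukaemic erythroid blasts from bone marrow that carry a Spi1 transgene and overproduce the transcription factor PU.1. All cultures grew with erythropoietin (EPO) and carried a doxycycline-inducible shRNA against Spi1. In the doxycycline group (3 libraries) the shRNA was induced for 48 h, and in the untreated group (3 libraries) it was not. The labels give both groups replicate numbers 1 to 3 and call them biological replicates of 1 cell population, and no library here is of cells given doxycycline without the shRNA, so effects of the drug and of lower Spi1 cannot be told apart. The comparison addresses what changes once the shRNA against Spi1 is induced with doxycycline.

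Spi1 itself stood at 84.8, 80.4 and 62.1 CPM in doxycycline replicates 1, 2 and 3, against 415, 353 and 329.6 CPM in untreated replicates 1, 2 and 3 (log2 fold change -2.27, SE 0.17, edgeR adjusted p = 0.0030). Total counts lay between 78926663 and 101276319 reads per library. The summed CPM of 15 erythroid markers lay between 8723 and 11273 with doxycycline and between 6543 and 8085 in untreated libraries. The sum of 12 megakaryocyte and platelet markers lay between 149 and 230.1 CPM with doxycycline and between 228 and 409 CPM untreated. For 10 monocyte and macrophage markers it lay between 17.2 and 23.5 CPM with doxycycline and between 22.4 and 32.3 CPM untreated, and for 10 B cell markers between 2.32 and 39.3 CPM with doxycycline and between 4.48 and 44.7 CPM untreated, highest in replicate 3 of both groups. For 9 mast cell and basophil markers it lay between 295 and 473 CPM with doxycycline and between 272 and 449 CPM untreated. Most of this sum was Gata2, which averaged 351 CPM with doxycycline and 330 CPM untreated. The sum thus says little of the other markers in that list. For 11 neutrophil markers the sum lay between 0.230 and 11.4 CPM with doxycycline and between 0.419 and 43.8 CPM untreated, where untreated replicate 2 stood apart. Single markers differed within the lists: Itgam, Csf1r, Cd3e and Mpo had means over the 6 libraries of 0.135, 0.437, 0.0230 and 0.0678 CPM, while Pf4 had 120.1, Gp5 101, Fcer1a 30.1, Ccr2 18.7, Blnk 15.7, Lck 4.67 and S100a9 4.28 CPM. In bulk RNA, fewer cells of a type and less RNA per cell cannot be told apart.

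The summed level of the family differed between the groups by less than the spread within them. The 16 judged members summed to 1124 ± 125 CPM with doxycycline and 1102 ± 111 CPM in untreated cells (SD, n = 3 each), and their median log2 fold change was -0.08, against 0.0049 over the 11811 tested genes of at least 0.5 mean CPM. Within that total, members moved in both directions. Without regard to the replicate numbers, 1 of 16 passed edgeR's quasi-likelihood test, Cd37, which fell. Of all tested genes above the same level, 2.2% fell and 0.432% rose. No label states a pairing, but libraries of equal number deviated from their group means together, so the numbers were taken as pairs. With the number as a block, 8 of 16 passed: Tspan33, Tspan13, Cd151 and Tspan15 rose, and Cd37, Tspan32, Tspan8 and Tspan17 fell. The same fit called 10.9% of genes above this level higher and 16.5% lower. DESeq2 with the block called 6 of these 8, and neither Tspan32 nor Tspan17. Below, rose and fell name the fit in which the member passed.

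**Figure D1:**
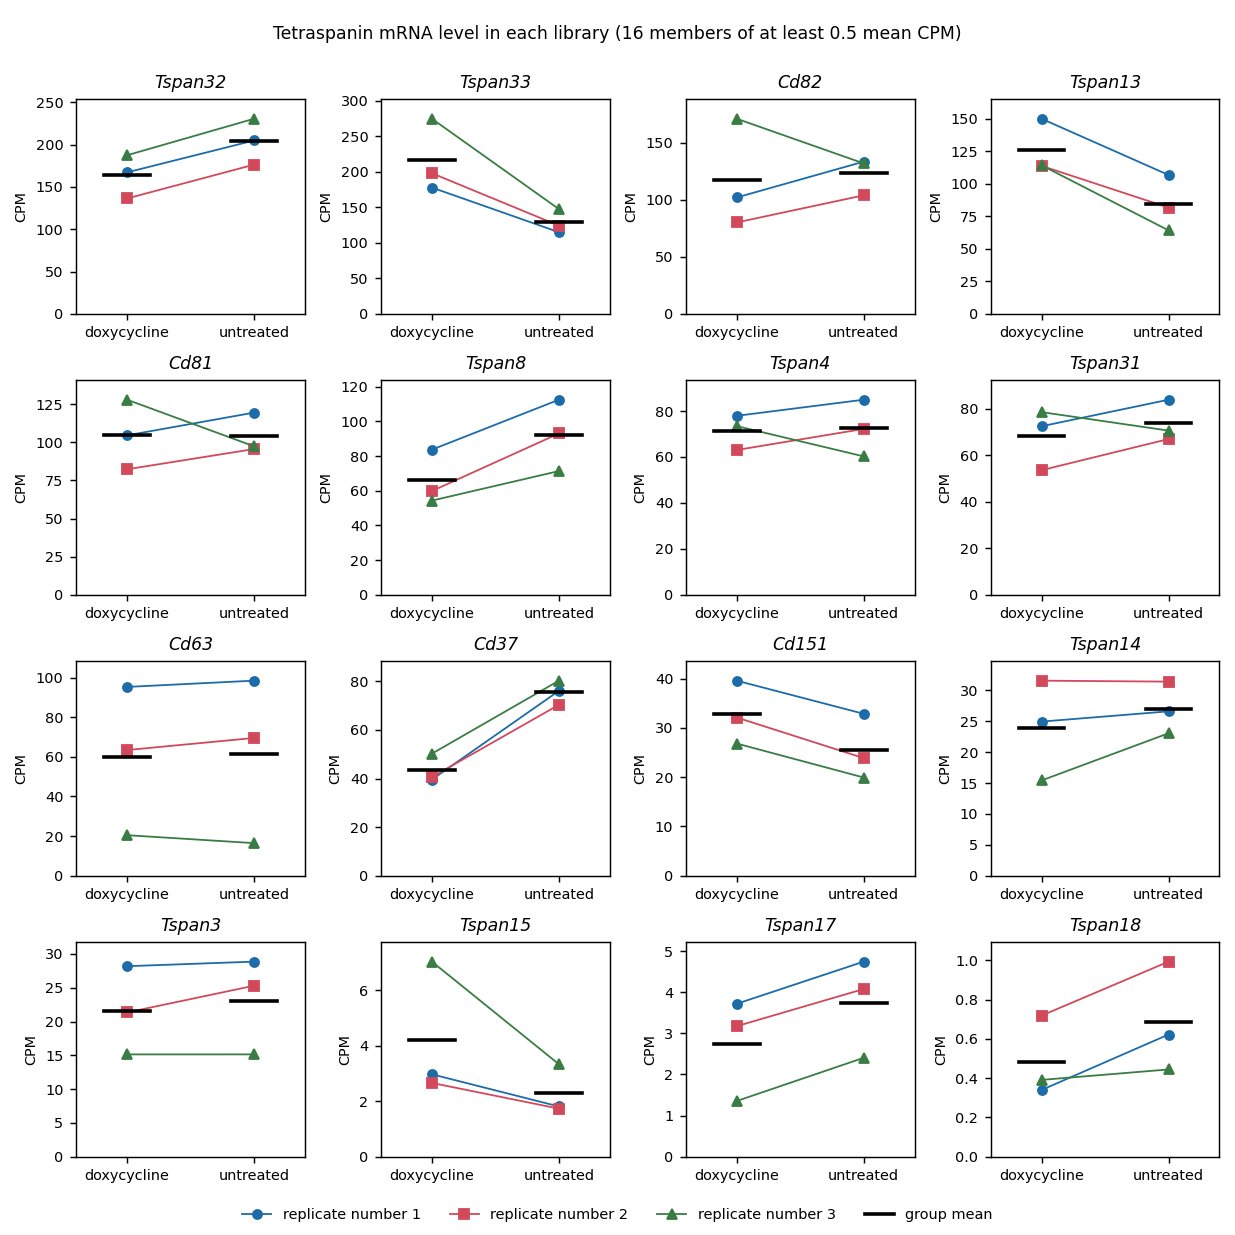
Level of the 16 judged tetraspanins in each library, in CPM on linear axes that start at 0. Points are libraries, lines join doxycycline and untreated libraries of equal replicate number, and black bars are group means. The groups do not overlap for Cd37, Tspan33 and Tspan13, and Cd63 separates by replicate number instead.

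Among the leukocyte tetraspanins Cd37 showed the clearest change. Cd37, found on B cells, T cells and phagocytes, where it binds the receptor dectin-1, lies on chromosome 7 from 45233632 to 45239115 on the minus strand (GRCm38). It had 39.6, 40.6 and 50.2 CPM in doxycycline replicates 1, 2 and 3, against 76.1, 70.3 and 80.3 CPM in untreated replicates 1, 2 and 3. Each doxycycline library was below each untreated library. The mean fell to 43.5 ± 5.87 CPM with doxycycline, against 75.5 ± 4.99 CPM in untreated cells (SD, n = 3 each; log2 fold change -0.80, SE 0.15, edgeR adjusted p = 0.042, and 1.9e-04 with the block). Within pairs of equal number the log2 difference was -0.94, -0.79 and -0.68. The call without the block was close to the threshold. It was lost in every fit that left out 1 library, where the adjusted p lay between 0.060 and 0.17, and with another scaling (0.053) or no filter on low counts (0.051). With the block it held when both libraries of any 1 number were left out. Such fits, here and below, keep 2 libraries a group and fewer residual degrees of freedom than the full fit with the block. Their p-values thus rest on little replication. Of 6 monocyte markers tested, 1 fell without the block and 4 with it, and of 4 B cell markers tested none passed without the block and 1 fell with it. Of all genes tested, 2.18% fell without the block and 15.6% with it. The 4 include Cd14, at a mean of 0.231 CPM. Ccr2, which made up most of the monocyte sum, passed neither fit (-0.08, edgeR adjusted p = 0.91 without the block). The part of these markers in the result of Cd37 was not tested.

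The start region of Cd37 holds a match to the PU.1 core, and the regions of 2 other members are shown for contrast, since Tspan32 also fell and Tspan33 rose with the block. These regions were thus picked by outcome. The 250 bases before the RefSeq start (build GRCm38.p6) are given 5′ to 3′ on the gene's strand, with 3 motifs, on either strand, in capitals. These are the short PU.1 core GAGGAA, the longer form GAGGAAGT, which contains it, and the GATA factor motif AGATAA. The regions are chr7:45238840-45239089 on the minus strand for Cd37, chr7:143004796-143005045 on the plus strand for Tspan32 and chr6:29693964-29694213 on the plus strand for Tspan33.
Cd37: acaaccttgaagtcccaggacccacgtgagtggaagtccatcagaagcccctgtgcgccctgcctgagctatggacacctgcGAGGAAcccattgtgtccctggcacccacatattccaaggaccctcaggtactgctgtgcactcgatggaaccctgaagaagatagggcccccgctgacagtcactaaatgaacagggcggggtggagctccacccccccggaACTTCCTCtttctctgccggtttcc
Tspan32: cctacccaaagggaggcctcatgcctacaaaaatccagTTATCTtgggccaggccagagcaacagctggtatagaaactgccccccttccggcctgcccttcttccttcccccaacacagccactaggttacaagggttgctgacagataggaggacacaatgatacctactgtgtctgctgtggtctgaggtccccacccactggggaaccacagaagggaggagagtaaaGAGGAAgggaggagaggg
Tspan33: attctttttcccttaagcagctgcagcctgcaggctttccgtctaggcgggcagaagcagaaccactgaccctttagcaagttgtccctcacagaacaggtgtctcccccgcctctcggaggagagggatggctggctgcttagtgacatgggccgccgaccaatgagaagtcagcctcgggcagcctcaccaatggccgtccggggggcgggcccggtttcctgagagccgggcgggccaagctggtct
In Cd37 the match to GAGGAAGT lies on the opposite strand with its leftmost base at position -25, where -1 is the base before the start. The Cd37 region lies within the GENCODE span of the gene (45233632 to 45239115), so by that annotation the match lies after the gene's 5′ end. Tspan32 holds GAGGAA at -18 and AGATAA on the opposite strand at -212, and Tspan33 has no match to these letters in its window. Of 32851 windows of 300 bases in the RefSeq table, which reach 50 bases past the start, 3.2% hold GAGGAAGT, 28.3% GAGGAA and 11.2% AGATAA. RefSeq gave 33 windows for 23 of the 24 members, whose shares were not tested against these. Of the 33, 9 held GAGGAA (27.3%) and 2 held AGATAA (6.1%). GAGGAAGT was in 4 (12.1%), 1 each of Cd37, Cd53, Cd82 and Tspan14. The sites of the other 3, in 30 bases each, show the same capitals in a different setting. They are chr3:106790125-106790154 for Cd53, chr2:93462058-93462087 for Cd82 and chr14:40948197-40948226 for Tspan14, all on the minus strand.
Cd53: cactcagtctcACTTCCTCactcttctcgc
Cd82: ggttccagaagGAGGAAGTtgattgagatg
Tspan14: gcagtcccctgGAGGAAGTgggaggagtga
Of these 4 members Cd37 passed both fits, Cd82 and Tspan14 passed neither, and Cd53 was too low to judge. Tspan8 and Tspan17, which also fell with the block, held none of the 3 motifs in their windows. Nor did Tspan13, Cd151 and Tspan15, which rose with it. Of members that passed neither fit, Cd63, Cd82, Tspan14 and Tspan31 held GAGGAA, and Cd81, Tspan3 and Tspan4 held no motif. A match is a description of sequence and not a bound site.

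Tspan32, a tetraspanin of blood cells that restrains T cell proliferation and binds the platelet integrin, was lower with doxycycline in each pair. It had 167, 136 and 187 CPM in doxycycline replicates 1, 2 and 3, against 205, 176 and 231 CPM in untreated replicates 1, 2 and 3. The groups overlapped, the highest doxycycline library lying above the lowest untreated one. The log2 fold change without the block was -0.32 (SE 0.17, edgeR adjusted p = 0.45), and with the block it fell (-0.32, SE 0.083, adjusted p = 0.017). DESeq2 with the block gave an adjusted p of 0.083, and the edgeR call did not hold without number 1 or number 2.

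Cd81, a widely expressed tetraspanin also found on B cells, and Cd82, a metastasis suppressor that also marks quiescent stem cells, did not pass either fit. Cd81 had 105, 82.3 and 128 CPM in doxycycline replicates 1, 2 and 3, against 119, 95.6 and 97.4 CPM in untreated replicates 1, 2 and 3 (log2 fold change 0.01, SE 0.19, edgeR adjusted p = 0.99). Cd82 had 102, 80.2 and 171 CPM with doxycycline, against 134, 104 and 132 CPM untreated (-0.06, SE 0.28, edgeR adjusted p = 0.95). Without both libraries of number 3, Cd82 fell in edgeR with the block (-0.38, adjusted p = 7.2e-04). For both, the doxycycline library was lower in pairs 1 and 2 and higher in pair 3. That pattern, lower in pairs 1 and 2 and higher in pair 3, was shared by 5 of the 16 members, the others being Tspan4, Tspan31 and Cd63. Cd53, which marks nearly all leukocytes and binds CD45, had 30, 21 and 34 reads in doxycycline libraries and 8, 41 and 70 reads in untreated libraries. At under 0.5 CPM it was not judged.

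The TspanC8 tetraspanins carry ADAM10 out of the endoplasmic reticulum and steer it to its substrates. The family has 6 of them in the table: Tspan5, Tspan10, Tspan14, Tspan15, Tspan17 and Tspan33. Tspan33, also called Penumbra, is known in mice for its expression in erythroid progenitors and its support of red cell production. Its gene occupies chr6:29694222-29718559, plus strand. Tspan33 had 178, 198 and 275 CPM in doxycycline replicates 1, 2 and 3, against 115, 124 and 147 CPM in untreated replicates 1, 2 and 3. Each doxycycline library was above each untreated library. The mean was 217 ± 51.1 CPM with doxycycline and 129 ± 16.8 CPM untreated (SD, n = 3 each; log2 fold change 0.75, SE 0.20, edgeR adjusted p = 0.11). It rose with the block (0.73, SE 0.090, adjusted p = 2.6e-04), in DESeq2 (0.82, adjusted p = 0.041), and with the block in each fit without 1 replicate number. Erythroid markers moved with it: of 15 tested, 2 rose and none fell without the block, and 10 rose and 2 fell with it. Of all genes tested, 0.417% rose and 2.18% fell without the block, and 10.3% rose and 15.6% fell with it. The part of these markers in the result of Tspan33 was not tested.

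The other TspanC8 members did not move as 1 group. Tspan15 had 2.97, 2.66 and 7.04 CPM in doxycycline replicates 1, 2 and 3, against 1.81, 1.73 and 3.34 CPM in untreated replicates 1, 2 and 3, and it was higher with doxycycline in each pair. Its log2 fold change without the block was 0.88 (SE 0.46, edgeR adjusted p = 0.44), and it rose with the block (0.81, SE 0.16, adjusted p = 0.0047), though not without number 1. Without the block it was 0.30 without doxycycline replicate 3 and 1.25 without untreated replicate 3. Tspan17 had 3.72, 3.18 and 1.36 CPM with doxycycline, against 4.74, 4.08 and 2.41 CPM untreated. Its log2 fold change without the block was -0.44 (SE 0.43, edgeR adjusted p = 0.73), and it fell with the block close to the threshold (-0.50, SE 0.16, adjusted p = 0.047), but not in DESeq2 with the block or in any fit without 1 number. Without the block it was -0.10 without doxycycline replicate 3 and -0.72 without doxycycline replicate 1. Tspan14 had 25.0, 31.6 and 15.4 CPM with doxycycline, against 26.6, 31.4 and 23.1 CPM untreated, and passed neither fit (-0.17, SE 0.27, edgeR adjusted p = 0.85). Tspan10 had a deposited value of 1, the lowest in the table, in each doxycycline library and values of 21, 6 and 6 in untreated libraries, too low to judge. Tspan5 had values of 1 to 3 in all 6 libraries.

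Per length, the TspanC8 members summed to 53.0 ± 7.09 CPM per kb of exon with doxycycline and 37.6 ± 1.95 CPM per kb untreated (SD, n = 3 each). Of this level Tspan33 made up 74.0%, 72.9% and 87.6% in doxycycline replicates 1, 2 and 3, against 62.5%, 62.1% and 72.8% in untreated replicates 1, 2 and 3. The share was higher with doxycycline in each pair, and the groups came close without overlapping. Tspan14 made up most of the rest, with 17.6 ± 7.0% with doxycycline and 27.2 ± 4.37% untreated. Adam10, which these proteins serve, had 406 ± 36.4 CPM with doxycycline and 395 ± 26.9 CPM untreated (log2 fold change 0.04, SE 0.13, edgeR adjusted p = 0.93).

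**Figure D2:**
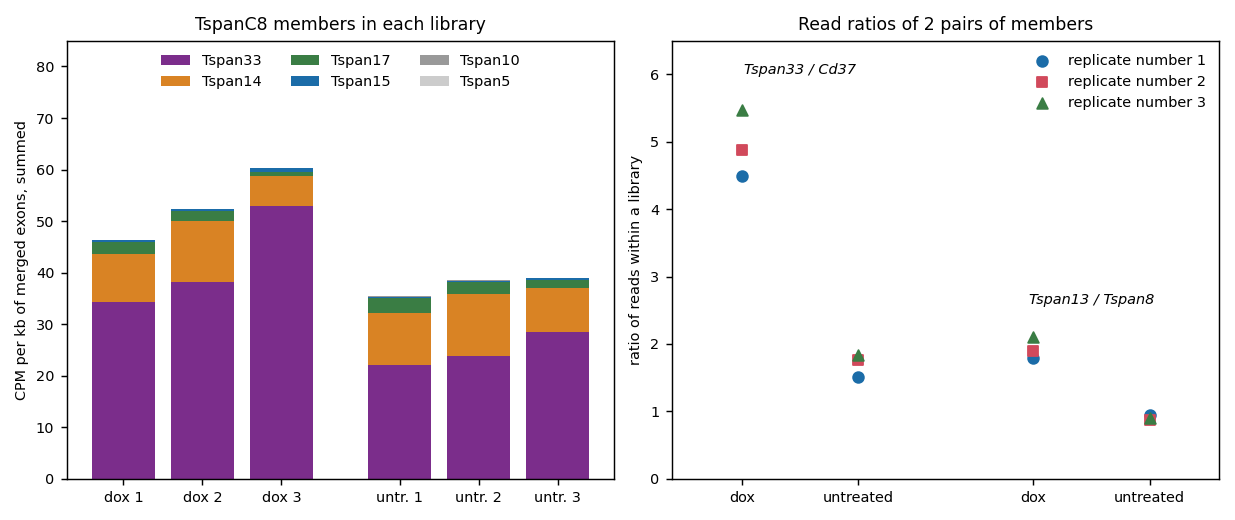
Left, CPM per kb of merged exons of the 6 TspanC8 members, stacked for each library, with doxycycline libraries on the left. Right, reads of Tspan33 per read of Cd37 and of Tspan13 per read of Tspan8 in each library. Tspan33 fills most of each bar, and both ratios are higher in each doxycycline library than in any untreated library.

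Tspan13 and Tspan8 were both abundant per length and moved apart. Tspan13 lies on chromosome 12 from 36014557 to 36042500 on the minus strand. It had 149.9, 114 and 114 CPM in doxycycline replicates 1, 2 and 3, against 107, 81.7 and 64.1 CPM in untreated replicates 1, 2 and 3, with no overlap of the groups (log2 fold change 0.58, SE 0.22, edgeR adjusted p = 0.26). It rose with the block (0.60, SE 0.098, adjusted p = 0.0015), also in each fit without 1 number. Tspan8, a tetraspanin of carcinomas linked to invasion and exosomes, lies on chromosome 10 from 115816832 to 115849893 on the plus strand. It had 83.7, 59.9 and 54.3 CPM with doxycycline, against 113, 93.0 and 71.4 CPM untreated. The groups overlapped, and it was lower with doxycycline in each pair (-0.48, SE 0.23, edgeR adjusted p = 0.39). It fell with the block (-0.49, SE 0.091, adjusted p = 0.0034), though not without number 1.

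Ratios of reads within a library do not depend on the scaling between libraries. The pairs below were picked after their values were seen, so the ratios are given with no test. There were 1.79, 1.90 and 2.10 reads of Tspan13 per read of Tspan8 in doxycycline replicates 1, 2 and 3, against 0.948, 0.878 and 0.898 in untreated replicates 1, 2 and 3. Tspan33 had 4.49, 4.87 and 5.47 reads per read of Cd37 with doxycycline, against 1.51, 1.77 and 1.84 untreated. Tspan32 had 1.60, 1.66 and 1.46 reads per read of Cd81 with doxycycline, against 1.71, 1.84 and 2.37 untreated. The groups did not overlap in these 3 ratios. In the 2 others computed they did: Tspan33 had 7.13, 6.27 and 17.8 reads per read of Tspan14 with doxycycline, against 4.32, 3.95 and 6.39 untreated, and Cd151 had 0.508, 0.509 and 0.365 reads per read of Tspan4 with doxycycline, against 0.387, 0.331 and 0.331 untreated.

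Of the widely expressed members, Cd151 was higher with doxycycline in each pair. Cd151, which holds laminin-binding integrins, had 39.6, 32.1 and 26.8 CPM in doxycycline replicates 1, 2 and 3, against 32.9, 23.9 and 19.9 CPM in untreated replicates 1, 2 and 3. The groups overlapped (log2 fold change 0.36, SE 0.24, edgeR adjusted p = 0.56), and it rose with the block (0.37, SE 0.099, adjusted p = 0.020), though not without number 1 or number 2. Tspan4, known for building migrasomes, starts 3.8 kb beyond the end of Cd151 on chromosome 7 on the same strand. It had 77.9, 63.0 and 73.4 CPM with doxycycline, against 84.9, 72.2 and 60.3 CPM untreated, and passed neither fit (-0.02, SE 0.17, edgeR adjusted p = 0.98). Likewise Cd81 lies 33.1 kb beyond Tspan32, and of that pair only Tspan32 passed the fit with the block. Whether the neighbours differed from each other was not tested. Tspan4 shares 292 exon bases with Chid1 on the other strand, and reads of both strands are alike in these libraries.

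Tspan31, first found as a gene amplified with CDK4 in human sarcoma, had 72.4, 53.5 and 78.5 CPM in doxycycline replicates 1, 2 and 3, against 83.8, 66.9 and 70.5 CPM in untreated replicates 1, 2 and 3 (log2 fold change -0.11, SE 0.18, edgeR adjusted p = 0.85). It shares 641 of its 2193 exon bases with Cdk4 on the other strand, which had means of 563 and 468 CPM with doxycycline and untreated. How the reads were split between them is uncertain. Tspan3, studied in acute myeloid leukaemia, had 28.2, 21.3 and 15.1 CPM with doxycycline, against 28.9, 25.3 and 15.1 CPM untreated (-0.10, SE 0.31, edgeR adjusted p = 0.93). Tspan18, a partner of the calcium channel Orai1 in endothelium, averaged 0.484 ± 0.206 CPM with doxycycline and 0.687 ± 0.280 CPM untreated (SD, n = 3 each). None of these 3 passed either fit. Without number 3, edgeR with the block called Tspan31 (-0.26, adjusted p = 0.031) and Tspan18 (-0.63, adjusted p = 0.029) lower.

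**Figure D3:**
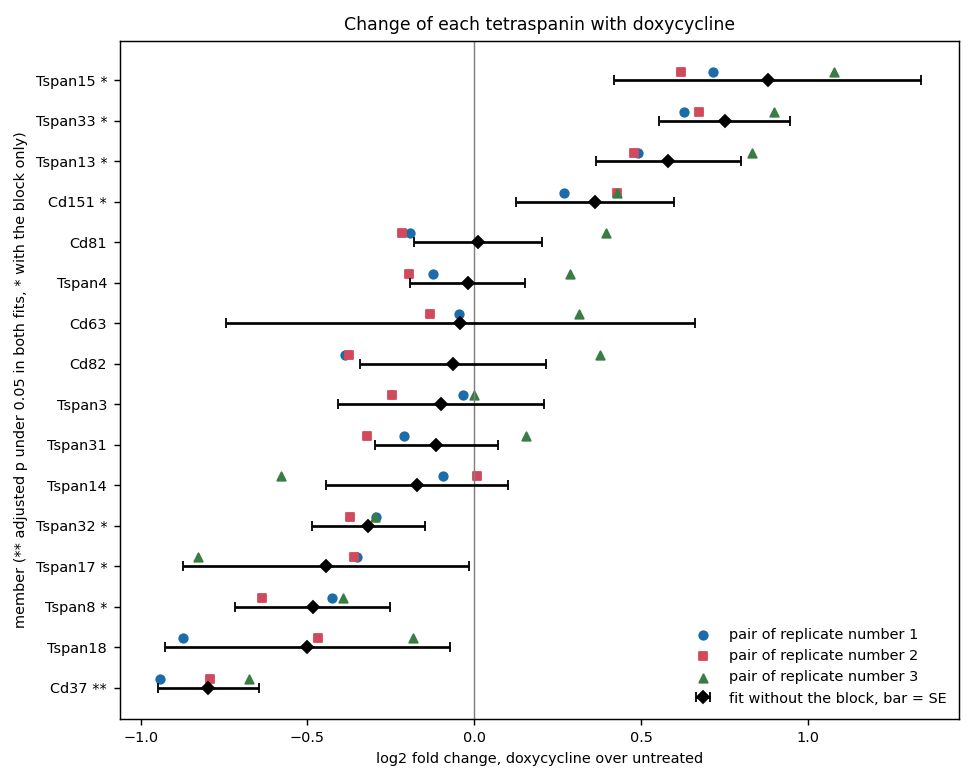
Log2 fold change of each judged member, doxycycline over untreated, as black diamonds with the SE of the fit without the block, and within each pair of equal replicate number as coloured points. Cd37 passed both fits and 7 others the fit with the block only, and for 5 members pair 3 lies on the other side of 0 from pairs 1 and 2.

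For several members the replicate number mattered more than doxycycline. Cd63, a protein of late endosomes, lysosomes and platelet granules and a common exosome marker, had 95.3, 63.4 and 20.5 CPM in doxycycline replicates 1, 2 and 3, against 98.4, 69.5 and 16.5 CPM in untreated replicates 1, 2 and 3. Its highest library was 4.66 times its lowest with doxycycline and 5.98 times untreated, in both groups number 1 over number 3. Between the groups its log2 fold change without the block was -0.04 (SE 0.70, edgeR adjusted p = 0.99), and with the block 0.04 (SE 0.11, adjusted p = 0.81). The change with doxycycline was thus far smaller than the spread between cultures, and it was measured closely only within pairs. In the fit with the block, 12 of 16 judged members differed between the numbers at an adjusted p under 0.05, where 48.2% of genes above the same level did. Cd37 was among the 4 that did not pass (adjusted p = 0.17), with Cd81, Tspan4 and Tspan31. Pairs 1, 2 and 3 had the same direction for 10 of the 16 members (4 higher and 6 lower with doxycycline), and for 59% of genes at this level. Of the 6 lower, Tspan3 differed by less than 0.01 in pair 3. The groups did not overlap for 2 members that were higher and 1 that was lower, where 8.52% and 11.6% of genes at this level were so. For both measures the members' shares lie near these backgrounds.

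Levels can be compared between members per length of exon. By this measure Tspan8 (38.8 ± 9.17 CPM per kb with doxycycline and 54.2 ± 12.1 untreated), Tspan13 (50.9 ± 8.41 and 34.0 ± 8.65), Cd82, Cd81 and Tspan33 (41.7 ± 9.84 and 24.8 ± 3.23; SD, n = 3 each) had the highest means over the 6 libraries, from 46.5 for Tspan8 to 33.3 for Tspan33. Tspan4, Tspan31 and Tspan32 followed with means of 33.0, 32.3 and 29.5 CPM per kb. Tspan13 was above Tspan8 with doxycycline and below it untreated, so the order holds for the means over the 6 libraries and not within each group. Cd37 (12.3 ± 1.67 with doxycycline and 21.5 ± 1.42 untreated), Cd63, Cd151, Tspan14 and Tspan3 lay below them, and Tspan17, Tspan15 and Tspan18 had means under 2 CPM per kb. Exons of all annotated transcripts of a gene were merged for its length, and which of them the cells used was not tested.

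**Figure D4:**
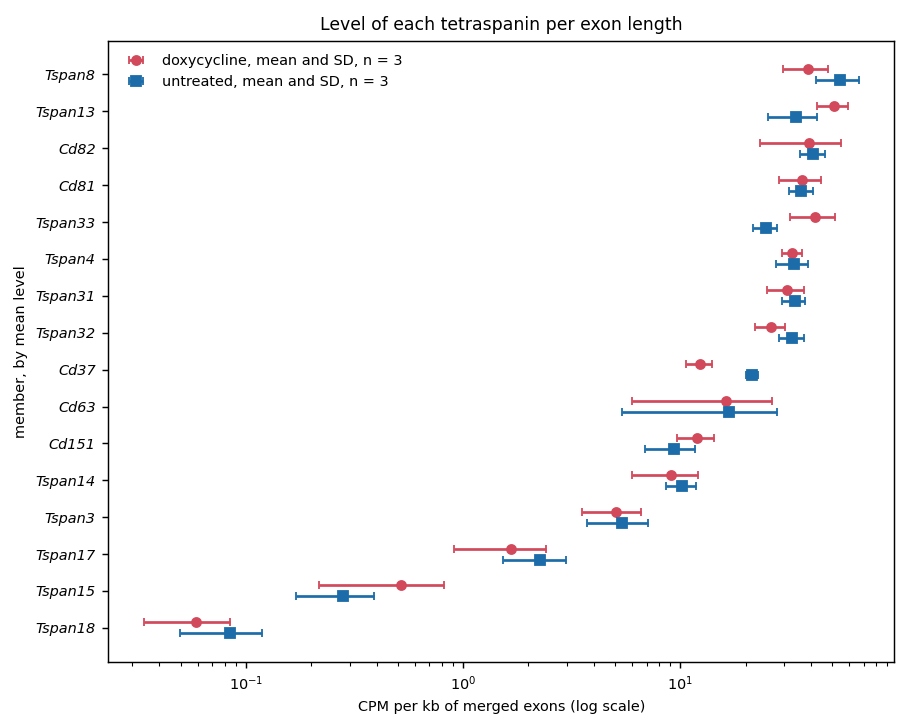
Level of the judged members in CPM per kb of merged exons on a log axis, as mean and SD over 3 libraries a group, with doxycycline above untreated. Tspan13 has the highest mean with doxycycline and Tspan8 untreated, and Cd37 and Tspan33 show the groups apart.

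Cd9, a tetraspanin of platelets and megakaryocytes, had 3, 2 and 3 reads in doxycycline libraries and 1, 7 and 4 in untreated libraries. Tspan1, Tspan2, Tspan9 and Tspan12 had deposited values of 1 to 10 in the 6 libraries. With Cd53, Tspan5 and Tspan10 these were the 8 members under 0.5 CPM, and 7 of the 8, all but Cd53, were left out of the test for low counts. Of 3 family members not covered by the rule, Upk1a, Prph2 and Rom1, 2 were tested. Rom1, a photoreceptor tetraspanin, rose with the block (3.36 ± 1.22 CPM with doxycycline and 2.39 ± 1.20 untreated, SD, n = 3 each; log2 fold change 0.56, SE 0.17, edgeR adjusted p = 0.040), and neither passed without it.

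The partners of tetraspanins were counted in the same fits, where of all 14158 genes tested 2.18% fell and 0.417% rose without the block and 15.6% fell and 10.3% rose with it. Of 10 tested integrin chains, 2 fell and none rose without the block, and 6 fell and 1 rose with it, with a median log2 fold change of -1.03 against 0.01 over all genes tested. Those 2 were Itgb2, the common beta chain of leukocyte integrins (25.3 ± 4.04 CPM with doxycycline and 126 ± 8.62 untreated, log2 fold change -2.32, edgeR adjusted p = 0.0030), and Itgb4, the beta chain of epithelial laminin receptors (0.136 ± 0.0677 and 0.641 ± 0.161 CPM, -2.23, edgeR adjusted p = 0.048; SD, n = 3 each). Itgb4 had only 12, 20 and 7 reads with doxycycline and 69, 53 and 46 untreated. Its mean of 0.388 CPM lay under the 0.5 CPM asked of members, so its call is not taken as a result. Of 17 cytosolic partners and palmitoyltransferases, 2 fell without the block and 3 rose and 5 fell with it (median 0.01). Ptpn6, the phosphatase SHP-1, averaged 38.6 ± 2.89 CPM with doxycycline and 82.5 ± 4.09 CPM untreated (-1.10, edgeR adjusted p = 0.014). Rac1, a GTPase of the actin cortex, averaged 186 ± 16.3 and 291 ± 12.0 CPM (-0.64, edgeR adjusted p = 0.044; SD, n = 3 each).

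No member of the other partner lists passed without the block. Of 9 tested genes of ADAM10, ADAM17 and their substrates 4 fell and none rose with the block (median -0.26), among them Notch2 (-0.75), the adhesion receptor Cd44 (-0.58) and Il6ra, a chain of the interleukin 6 receptor (-2.41). Il6ra had 4, 12 and 16 reads with doxycycline and 15, 27 and 144 untreated. Its mean of 0.383 CPM lay under the 0.5 CPM asked of members, so its call is not taken as a result. Of 11 immunoglobulin and other receptor partners 2 rose and 2 fell with the block (median -0.17), among them the transferrin receptor Tfrc (0.56) and the matrix protease Mmp14 (-0.46). The other gene counted as lower, the inhibitory Fc receptor Fcgr2b, had deposited values of 1, 4 and 4 with doxycycline and 10, 10 and 21 untreated, and entered the test only through the untreated libraries, so its call is no result. Of 24 exosome and multivesicular body genes 1 rose and 8 fell with the block (median -0.12). Anxa5, a binder of phosphatidylserine, averaged 94.6 ± 16.03 CPM with doxycycline and 179 ± 28.2 untreated. Rab27a, which docks secretory organelles, averaged 12.5 ± 4.20 and 25.8 ± 8.23 CPM, and Vps4a, the ATPase that disassembles ESCRT filaments, 30.2 ± 1.4 and 53.4 ± 8.99 CPM (SD, n = 3 each). Their edgeR adjusted p with the block were 3.5e-05 for Anxa5, 7.0e-05 for Rab27a and 3.1e-04 for Vps4a.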

How the data were processed

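Poly(A) RNA libraries of 3 doxycycline and 3 untreated cultures were made with the TruSeq RNA v2 kit, per the labels' protocols. The submitters' processing notes name bcl2fastq 2.17.1.14, STAR, DESeq2 and the builds mm10 and GRCm38, with no counter. The authors deposited raw counts per gene symbol, with a lowest value of 1 in every library, so a value of 1 may stand for no read. Here genes were filtered with filterByExpr, which left 14158 of 25628, scaled by TMM and tested with the quasi-likelihood F test of edgeR 4.0.16 (R 4.3.3) with group as the only term, with Benjamini-Hochberg adjustment over all genes tested and a threshold of 0.05. SEs were derived from the log2 fold change and F.

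Deviations from the group means correlated at 0.77, 0.74 and 0.72 between libraries of equal replicate number, so the number was also fitted as a block. Correlations between unequal numbers were negative, which follows on balance because deviations cancel within a group. The pairing was thus taken from these data and not from the labels. The block lowered the common biological coefficient of variation to 11.3%, against 28.6% without the block, with 2 residual degrees of freedom against 4. DESeq2 1.42.0 was an alternative. P-values without the block measure the spread between these cultures of 1 cell population. Those with the block measure the spread of the differences within pairs of equal number. The edgeR fits were also run on simulated counts with a replicate effect built in. That run cannot show whether the pairing holds in these data. Exon lengths and positions came from GENCODE M21 (GRCm38), promoter sequences from RefSeq. The members and lists were chosen with earlier results of these data known. All members were described. Of each partner list up to 4 genes with the smallest adjusted p without the block were named, or, where fewer than 2 passed, up to 3 with the block. Reads shared with genes on the other strand could not be assigned, since the kit marks no strand: Tspan32 shares 271 exon bases with Tspan32os, Cd151 193 with Gm10575, Cd81 104 with R74862 and Cd37 13 with Tead2.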

Additional observations from a re-analysis of the deposited data

How the results depend on the processing

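The count of members past the threshold was 1 without the block and stayed 1 with a filter on mean CPM, with 1 taken off every value and with floors of 1 and 5 CPM. It was 8 with the replicate block, 0 with the size factors of DESeq2 in edgeR, 2 in DESeq2, 6 in DESeq2 with the block, 0 with no filter on low counts, and 0 in each of the 6 fits that left out 1 library. With the block and both libraries of 1 number left out, an alternative chosen after seeing the data, it was 3, 5 and 10 without number 1, 2 and 3. Over all genes the count was 367, against 3658 with the block, which kept all 367, 930 in DESeq2, 3396 in DESeq2 with the block, and 38 to 268 without 1 library. With the block it was 1248, 3429 and 4748 without number 1, 2 and 3. Spi1 kept its direction and its call in every fit (-2.36 to -2.14). Members near 0 changed sign. Cd82 was 0.0039 in DESeq2, Cd81 -0.0051 with the block, Tspan4 0.00052 with the size factors of DESeq2, 0.048 in DESeq2 and 0.055 in DESeq2 with the block, and Cd63 0.041 with the block, 0.025 in DESeq2 and 0.11 in DESeq2 with the block. With the block and without number 1, Cd82 was 0.016, Tspan4 0.060 and Cd63 0.10, without number 2 Tspan4 was 0.085 and Cd63 0.13, and without number 3 Cd81 was -0.20. Leaving out 1 library gave ranges across 0 of -0.42 to 0.15 for Cd82, -0.14 to 0.16 for Cd81, -0.14 to 0.13 for Tspan4, -0.21 to 0.033 for Tspan31, -0.55 to 0.50 for Cd63, -0.42 to 0.074 for Tspan14 and -0.34 to 0.12 for Tspan3. Without crossing 0, Tspan15 ranged over 0.30 to 1.25, Tspan17 over -0.72 to -0.10, Tspan18 over -0.90 to -0.14, Cd151 over 0.21 to 0.61, Tspan8 over -0.69 to -0.29, Tspan13 over 0.42 to 0.81, Tspan32 over -0.41 to -0.20, Tspan33 over 0.55 to 0.88 and Cd37 over -0.90 to -0.73. Of all these only Cd37 had passed without the block, and the cause was not tested. A fit that leaves a group 2 libraries assumes they vary like the other group.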
